A study of Mus musculus with 186 samples.

Results

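The data described here are the 5 wild-type substantia nigra (SN) libraries at 12 weeks of age, out of 186 bulk RNA sequencing libraries in the series. They were set against the equal-weight mean of 5 other wild-type brain regions of the same age, each with 5 libraries: thalamus (TH), striatum (STR), hippocampus (HP), and the prefrontal (PFC) and somatosensory (SSC) cortex. The groups were taken from the labelled region, genotype and age, and no measured value entered that choice. The study sequenced these 6 regions from mice that carry or lack mutations of Akap11, which encodes an anchoring protein for protein kinase A, at 4 and 12 weeks. All 30 libraries of the main comparison carry the wild-type (WT) genotype, so no Akap11 mutation and no treatment is part of it. Strain, sex and the number of animals are not given in the labels, and nothing states that libraries of one group come from separate animals, so the p-values measure the spread between these libraries, which may in part be technical. The tissue was cut from frozen brain in a cryostat as a region and was not sorted by cell type, so each library mixes the neurons, glia and vessels of its piece together with any neighbouring tissue.

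The substantia nigra lies in the ventral midbrain. Its compact part holds dopamine neurons, which make dopamine from tyrosine, load it into vesicles, take it back up through a plasma membrane transporter and project to the striatum; their loss underlies the movement symptoms of Parkinson disease. Its reticular part holds fast-firing GABA neurons that are an output of the basal ganglia, and myelinated fibre tracts run through and beside both parts. In bulk tissue, a lower level of a gene can mean fewer cells of a type or less RNA per cell, and these cannot be told apart here.

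The SN libraries held 39997651 to 69157851 expected counts, within the range of all 30 libraries (31923033 to 69766866), and mitochondrial genes took 3.50% to 6.17% of them. Levels are CPM, counts scaled to a common library total, after TMM scaling, and SN values are given in the order of replicates 1 to 5. Fold changes are log2 values ± standard error (SE) from edgeR's quasi-likelihood test, with Benjamini-Hochberg adjustment over the 17180 genes tested. Genes with an adjusted p below 0.05 were called. The SN label was checked against 17 dopamine neuron markers: all 17 were higher in SN than in each of the other 5 regions, and the mean of log2(CPM + 1) over them was 6.81 to 7.22 in SN and at most 1.66 in any other library. Akap11 itself was at 191 to 238 CPM in the 5 SN libraries.

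Against the mean of the 5 regions, 6131 genes were higher in SN (35.7% of those tested) and 5513 were lower (32.1%), and the median log2 difference over all genes tested was 0.02. A gene was counted as above or below every region when it was called in the same direction in each of the 5 single comparisons, which held for 1510 genes above (8.79%) and 1404 below (8.17%). In 1076 genes (6.26%) every SN library exceeded all 25 others, and in 859 (5.00%) every SN library was lower than all 25. At 2-fold or more in each comparison, 391 genes (2.28%) were above and 187 (1.09%) below every region. The count of any list below is to be read beside these shares.

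The genes that make, pack and clear dopamine were mostly higher in SN. Of 12 tested, 10 were higher in SN and 1 was lower, 9 were above every region, and the median log2 difference was 2.80. Th, tyrosine hydroxylase, the rate-limiting enzyme of dopamine synthesis, measured 652, 828, 908, 849 and 975 CPM in SN and 0.0442 to 15.1 CPM in the other 25 libraries. The SN libraries stood far above all others, SN 1 being the lowest of the 5, and the striatum came next with 13.2 ± 2.095 CPM (SD, n = 5). The log2 difference was 9.18 ± 0.23 (adjusted p = 1.71e-23). Slc6a3, the dopamine transporter, reached 1492, 1701, 1797, 1614 and 1785 CPM against 0 to 0.437 elsewhere, a difference of 14.33 ± 0.15 (adjusted p = 8.29e-33), and it was close to absent outside SN. Slc18a2, the vesicular monoamine transporter, stood at 423, 666, 481, 467 and 559 CPM against 0 to 3.12, with SN 2 highest, and differed by 10.96 ± 0.24 (adjusted p = 7.52e-25). Ddc, which decarboxylates L-DOPA to dopamine, measured 472, 639.8, 629, 588 and 637 CPM in SN and 1.29 to 10.2 elsewhere (7.21 ± 0.14, adjusted p = 9.52e-26). The order of regions for Ddc ended with thalamus next below SN, whereas for Th it was striatum.

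RefSeq promoters of these 4 genes, from its GRCm38.p6 table, show whether members that were high together share 2 short motifs near their starts. Each line gives the 250 bases before a start, 5′ to 3′ on the gene's strand, with a motif match in capitals. The motifs were the cyclic AMP response element (CRE, TGACGTCA, which reads the same on both strands) and the binding sequence of the Nr4a nuclear receptors (NBRE, AAAGGTCA, searched on both strands). They overlap in none of the windows shown.
Th, chr7:142899996-142900245, minus strand: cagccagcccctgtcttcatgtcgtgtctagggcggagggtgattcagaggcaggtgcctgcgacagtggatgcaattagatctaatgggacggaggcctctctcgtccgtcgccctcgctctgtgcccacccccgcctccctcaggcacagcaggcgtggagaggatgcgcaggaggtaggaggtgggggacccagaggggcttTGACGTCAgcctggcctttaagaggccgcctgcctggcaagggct
Ddc, second listed start, chr11:11898145-11898394, minus strand: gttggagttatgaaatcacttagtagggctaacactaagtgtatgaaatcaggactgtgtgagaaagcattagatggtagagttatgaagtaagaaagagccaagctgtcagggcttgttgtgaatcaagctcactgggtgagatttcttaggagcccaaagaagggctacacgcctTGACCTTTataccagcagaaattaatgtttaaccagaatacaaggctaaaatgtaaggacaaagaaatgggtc
Slc6a3, chr13:73536497-73536746, plus strand: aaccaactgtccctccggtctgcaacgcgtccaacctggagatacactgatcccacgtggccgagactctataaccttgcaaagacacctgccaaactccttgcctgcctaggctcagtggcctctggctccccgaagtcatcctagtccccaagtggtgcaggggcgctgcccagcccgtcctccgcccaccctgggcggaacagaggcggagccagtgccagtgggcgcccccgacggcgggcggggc
Slc18a2, chr19:59260628-59260877, plus strand: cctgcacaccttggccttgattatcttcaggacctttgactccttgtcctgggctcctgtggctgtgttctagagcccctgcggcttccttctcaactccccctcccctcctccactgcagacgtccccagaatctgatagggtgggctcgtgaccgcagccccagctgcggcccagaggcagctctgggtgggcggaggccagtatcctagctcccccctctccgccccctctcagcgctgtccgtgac

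The Th window held a CRE at bases 45 to 38 before the start, and the second Ddc window held an NBRE on the opposite strand, which therefore reads TGACCTTT, at bases 73 to 66 before it. Neither motif was in the Slc6a3 or Slc18a2 window, nor in the window of the other listed Ddc start. Over the 32851 promoter windows of the table, 508 (1.55%) held a CRE and 439 (1.34%) held an NBRE. Among the 31 of 38 listed dopamine neuron genes that had an entry, Th was the 1 gene with a CRE, and Ddc and Sox6 were the 2 with an NBRE. These matches describe letters and not binding. Th lies on chromosome 7 (142892752 to 142931128, minus strand), Ddc on chromosome 11 (11814101 to 11898144, minus strand), Slc6a3 on chromosome 13 (73536747 to 73578672, plus strand) and Slc18a2 on chromosome 19 (59260896 to 59296012, plus strand) of GRCm38 by the GENCODE M21 annotation.

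The cofactor genes did not move alike. Gch1, which starts the synthesis of tetrahydrobiopterin, the cofactor of tyrosine hydroxylase, was at 30.8, 36.6, 39.2, 35.1 and 40.01 CPM in SN and 0.407 to 1.85 elsewhere, a difference of 5.33 ± 0.12 (adjusted p = 2.46e-24). Spr, its last step, differed by 0.49 ± 0.06 and Qdpr, which recycles the cofactor, by 1.37 ± 0.06, and both were above every region, whereas Pts, the middle step, differed by 0.23 ± 0.07 and was lower in SN than in thalamus. Aldh1a1, an aldehyde dehydrogenase of ventral tier dopamine neurons, measured 624, 922, 864, 835 and 885 CPM against 9.45 to 268 (4.24 ± 0.13, adjusted p = 1.03e-21), with thalamus next at 216 ± 36.04 CPM (SD, n = 5). Of the monoamine oxidases, which break dopamine down, Maoa was above every region (1.19 ± 0.07), with 70.5, 79.1, 64.6, 70.4 and 71.6 CPM in SN. Maob was not called (0.11 ± 0.09, adjusted p = 0.273), with thalamus at 72.8 ± 12.3 CPM and SN at 34.01 ± 5.49 (SD, n = 5).

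**Figure D1:**
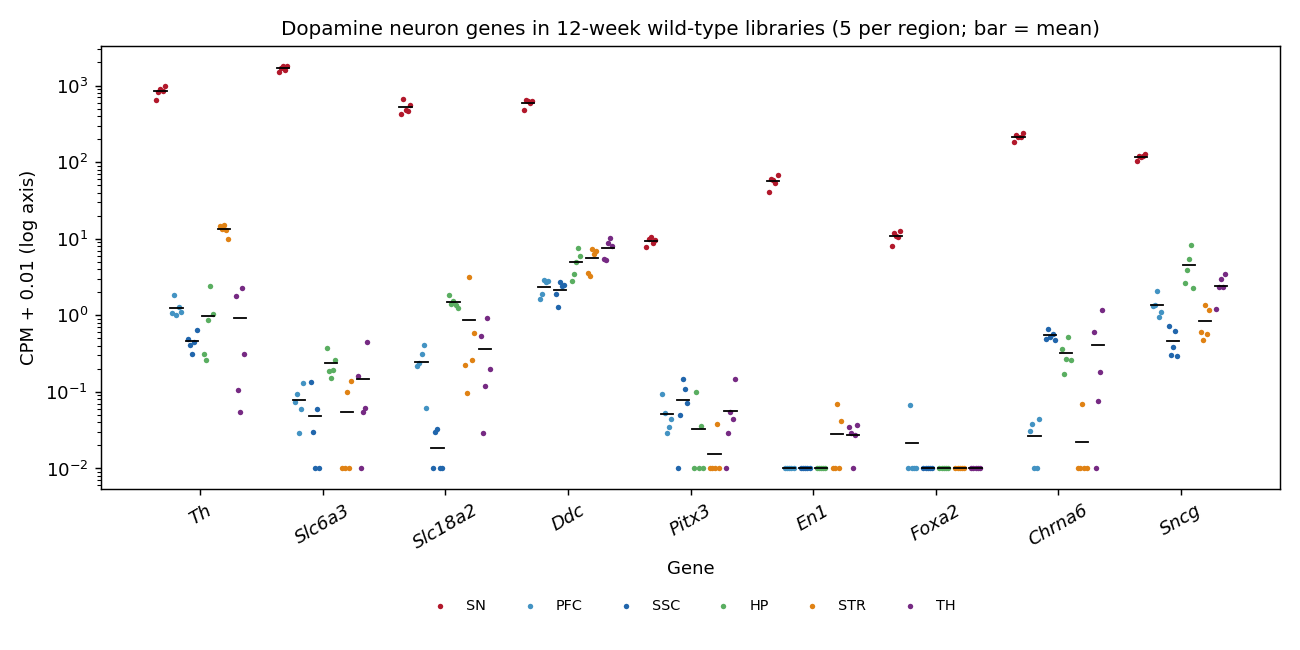
Dopamine neuron genes in each of the 30 wild-type libraries at 12 weeks, as CPM + 0.01 on a log axis, with points for libraries and a bar for each region's mean. The 5 SN libraries lie above all others for Th, Slc6a3, Slc18a2, Ddc, Pitx3, En1, Foxa2, Chrna6 and Sncg.

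All 10 transcription factors listed for dopamine neurons were higher in SN, and 8 were above every region, with a median log2 difference of 7.92. For 5 of these 10, at least 1 region had no counts, and the median was 7.92 when such a region was set to the limit of 3 counts over its 5 libraries. En1, engrailed 1, which maintains midbrain dopamine neurons, was at 40.4, 60.8, 57.9, 53.5 and 67.1 CPM in SN, while PFC, SSC and HP had no counts and the other 2 regions reached at most 0.0605 CPM. Set at that limit, its log2 difference was at least 11.94. En2 was at 9.65, 19.3, 18.4, 18.8 and 19.2 CPM against 0.0514 to 1.96 (5.30 ± 0.15), and SN 1 was low for both engrailed genes. Foxa1 and Foxa2, forkhead factors of the embryonic floor plate, were at 23.5, 28.8, 23.6, 27.9 and 29.2 CPM and 7.95, 11.9, 10.9, 10.5 and 12.7 CPM, and neither exceeded 0.199 CPM in any other library. Pitx3, required for SN dopamine neurons to survive, was low in SN too, at 7.75, 10.01, 10.5, 8.72 and 9.48 CPM, but the other libraries held at most 0.139 CPM (8.22 ± 0.26, adjusted p = 4.42e-21).

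The LIM homeobox genes Lmx1a and Lmx1b, early determinants of the lineage, were both above every region. Lmx1b was at 27.4, 28.7, 29.3, 32.3 and 34.5 CPM against 0 to 1.01 (7.62 ± 0.19). Lmx1a was at 12.3, 10.04, 6.34, 13.4 and 11.8 CPM, with no counts in PFC, SSC and STR and with 1.47 ± 0.981 CPM (SD, n = 5) in HP. Nr4a2 (Nurr1), which drives Th and Slc6a3 expression, was at 59.5, 89.3, 67.8, 91.3 and 85.2 CPM, and HP at 51.98 ± 15.9 CPM (SD, n = 5) overlapped it although the call above HP held. Otx2, a head and midbrain patterning factor, measured 5.08, 7.11, 7.66, 7.31 and 8.32 CPM in SN but 11.2 ± 6.87 CPM (SD, n = 5) in HP, so it was higher than the 5-region mean (4.95 ± 0.44) without being above HP. All 7 choroid plexus markers listed were highest in HP, their summed level being 644 to 3672 CPM there and 1.46 to 25.6 CPM in every other library, SN included; their part in the Otx2 and Lmx1a values was not tested. Sox6, a factor of SN rather than neighbouring dopamine neurons, differed by 0.59 ± 0.06 and overlapped other regions.

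Among 16 receptors, channels and peptides of dopamine neurons, 14 were higher, 2 were lower and 11 were above every region, with a median of 4.67. Ret, the signalling receptor for glial cell line-derived neurotrophic factor, was at 580.5, 676, 686, 648 and 754 CPM against 1.21 to 76.3 (6.74 ± 0.14, adjusted p = 1.67e-25), and its co-receptor Gfra1 at 151, 149.5, 172, 153 and 170.5 CPM against 19.8 to 77.1 (1.96 ± 0.11). The nicotinic receptor subunits were ordered by how far they stood apart from other regions: Chrna6 was at 184, 226, 215, 210.1 and 244 CPM against 0 to 1.15 (10.92 ± 0.19), Chrnb3 at 93.5, 117, 106, 107 and 118 against 0 to 11.1 (7.22 ± 0.26), and Chrna5 differed by 3.47 ± 0.26. Chrna4, the widespread subunit, was at 309.7 ± 31.9 CPM in SN and 244 ± 14.3 CPM in thalamus (SD, n = 5), a difference between those 2 of 0.34 ± 0.12 (adjusted p = 0.0178). Ntsr1, a neurotensin receptor, and Gucy2c, guanylate cyclase C, were above every region by 4.74 ± 0.16 and 6.56 ± 0.18. Slc10a4, a vesicle protein of monoamine and cholinergic neurons, differed by 8.26 ± 0.18, with striatum next at 27.1 ± 3.69 CPM (SD, n = 5).

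Drd2, the dopamine D2 receptor and autoreceptor, was higher than the mean of regions (4.60 ± 0.14) at 80.1, 94.2, 97.2, 90.1 and 107 CPM, while striatum, home of the D2-type projection neurons, was at 313 ± 47.7 CPM (SD, n = 5). The log2 ratio of SN to the arithmetic mean CPM of the regions was 0.54 for it. Kcnj6 (GIRK2) and Kcnn3 (SK3), potassium channels of dopamine neurons, were higher than the mean by 0.91 ± 0.12 and 1.28 ± 0.08 and overlapped other regions. The 2 that were lower were Cck (-2.11 ± 0.13), a peptide made by cortical and thalamic neurons too, and Cacna1d (-0.82 ± 0.07). Cacna1d encodes the CaV1.3 calcium channel used for pacemaking in SN dopamine neurons, and its 24.3, 25.3, 27.9, 24.4 and 25.4 CPM in SN lay below all 25 other libraries (29.2 to 64.6). Dlk1, a Notch ligand-like protein, was at 566, 627, 647, 568 and 691 CPM against 0.0193 to 39.7 (8.73 ± 0.40, adjusted p = 1.26e-17).

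Sncg encodes gamma-synuclein, a small protein of the presynaptic terminal. It was at 102, 121, 117, 119 and 127 CPM against 0.287 to 8.37 (6.38 ± 0.17, adjusted p = 3.47e-23), above all 25 other libraries. Sncb differed by 0.47 ± 0.06. Over the 22 synuclein and Parkinson disease genes, 14 were higher and 3 lower, with a median of 0.18. Apart from Sncg and Gch1, those named as higher differed less: Fbxo7 was higher by 0.61 ± 0.04, Atp13a2 by 0.55 ± 0.05, Uchl1 by 0.41 ± 0.05 and Pink1, the mitochondrial quality control kinase, by 0.20 ± 0.05. Lrrk2, a kinase gene, was lower (-1.58 ± 0.14), with 195 ± 47.8 CPM in STR and 19.2 ± 1.71 CPM in SN (SD, n = 5). Gak was below every region (-0.32 ± 0.04) and Dnajc13 was lower (-0.18 ± 0.05), while Park2 (parkin), Vps35, Vps13c and Tmem175 were not called.

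GABA neuron genes of the midbrain were also higher, most clearly their transcription factors. Of 13 tested, 11 were higher, 1 was lower and 6 were above every region, with a median of 1.65 (1.65 with regions at 0 set to the limit). Gata3, a zinc finger factor of midbrain and hindbrain GABA neurons, was at 17.96, 25.03, 30.5, 20.7 and 26.8 CPM against 0 to 0.396, and Tal1, which acts with Gata factors, at 21.4, 26.9, 35.4, 22.4 and 33.8 CPM against 0.717 to 2.35 (4.55 ± 0.10, adjusted p = 4.75e-25). Gata2 was higher by 1.64 ± 0.11 and Sox14 was at 2.31, 4.46, 4.404, 3.53 and 3.52 CPM against 0 to 0.227. Pax7, a dorsal midbrain factor, was at 0.849, 0.370, 0.302, 5.71 and 0.945 CPM, and SN 4 alone held most of it. Without SN 4 its log2 difference was 6.42 in place of 7.88, and without STR 3 it was 8.55, so its size depends on single libraries.

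Gad1, which makes GABA, was not called (0.82 ± 0.38, adjusted p = 0.0563), with 614, 615, 862, 555 and 742 CPM in SN. The 5 thalamus libraries measured 426, 39.6, 73.8, 582 and 7.79 CPM for it, and Gad2, Slc32a1, Six3, Pvalb and Sst were likewise high in TH 1 and TH 4 and low in the other 3. Without TH 1 and TH 4, a choice made after these values were seen, Gad1 was higher in SN by 1.31 (adjusted p = 6.41e-07). Gad2 and Slc32a1, the vesicular GABA transporter, were called with all libraries (1.27 ± 0.35 and 1.49 ± 0.36), and the striatum was at 536 ± 47.7 and 340.1 ± 23.1 CPM (SD, n = 5). Pvalb, parvalbumin, carried by reticular part neurons, was at 120.1, 108, 131, 95.2 and 111 CPM, higher than the mean (1.95 ± 0.19) but overlapping SSC and thalamus. Zfpm1 was lower (-0.91 ± 0.08) and its relative Zfpm2 higher (1.45 ± 0.17).

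Glutamate neuron genes of the midbrain and subthalamic area were present as well, and all 5 tested were higher, 2 of them above every region. Barhl1, a homeobox gene, was at 4.97, 1.51, 0.864, 2.501 and 0.922 CPM, with SN 1 and SN 4 highest. Slc17a6, the vesicular glutamate transporter VGLUT2, was at 231, 196, 134, 235 and 158 CPM, higher than the mean of regions (3.46 ± 0.21) and lower than in thalamus (-1.42 ± 0.31). Pou4f1, a factor of red nucleus and habenula neurons, was at 4.12, 7.602, 6.11, 7.76 and 6.26 CPM (5.18 ± 0.64).

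Among 18 peptide genes tested, 9 were higher, 4 were lower, 0 were above every region and the median was 0.44. Cbln1, a synapse-organising cerebellin, was at 48.6, 63.6, 47.4, 75.6 and 71.96 CPM (4.13 ± 0.18) and did not differ from thalamus by the test (0.35 ± 0.25, adjusted p = 0.242). Adcyap1, which encodes PACAP, was at 52.2, 28.98, 16.1, 60.5 and 22.2 CPM (3.19 ± 0.24), again with SN 1 and SN 4 highest. Nts and Grp were higher by 3.93 ± 0.42 and 3.59 ± 0.31, at 2.22 to 6.74 and 3.74 to 8.67 CPM in SN. Tac1 was higher in the equal-weight mean of logs (1.22 ± 0.19) but was lower than the arithmetic mean CPM of the regions by 1.51 on the log2 scale, striatum holding 208 ± 30.7 CPM (SD, n = 5). Npy was below all 25 other libraries at 0.831, 0.891, 0.686, 1.32 and 1.65 CPM against 7.67 to 104 (-5.37 ± 0.24, adjusted p = 8.29e-18). Vip, Pdyn and Sst were the other 3 that were lower.

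Patterning genes of the midbrain were mostly higher. Of 11 Iroquois, Pax, Otx and Meis genes, 9 were higher, 1 (Meis2) was lower and 7 were above every region, with a median of 4.02. Pax5, a midbrain and hindbrain border factor, was at 21.4, 44.7, 50.8, 41.4 and 54.8 CPM against 0 to 0.288 (8.65 ± 0.18, adjusted p = 3.47e-25), with SN 1 lowest. Pax8 was at 2.67, 5.28, 6.13, 4.46 and 6.83 CPM (8.12 with STR, at 0, set to the limit). Irx2, Irx3, Irx5 and Irx6 were above every region, and thalamus was the next highest for each: Irx3, for example, was at 8.76, 10.5, 10.7, 8.16 and 11.7 CPM in SN and 2.58 ± 0.738 CPM (SD, n = 5) in thalamus. Without SN 3 or without SN 5, 5 of the 11 were above every region in place of 7. None of the 11 listed Hox genes, which mark the hindbrain and spinal cord, passed the filter, and their counts over the 5 SN libraries together were 0 to 11.

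Markers of other monoamine and cholinergic neurons were at low levels in SN. Of 5 serotonin and noradrenaline genes, 2 were tested: Tph2, which makes serotonin, was at 0.885, 1.396, 1.66, 0.819 and 1.21 CPM and was called higher by 0.67 ± 0.25, a call lost without SN 2 or without SN 3, and Dbh was at no more than 0.0686 CPM and was not called. Slc6a4, Fev and Slc6a2 were not tested and had 57, 43 and 5 counts over the 5 SN libraries. Of 6 cholinergic and oculomotor genes, 4 were tested, and Chat, Slc5a7, Slc18a3 and Isl1 were not called, although without HP 1, HP 2 or HP 5 2 of them were called lower. Chat, which makes acetylcholine, was at 0.885, 0.740, 0.933, 0.834 and 0.851 CPM in SN against 50.5 ± 6.697 CPM (SD, n = 5) in striatum.

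Glycine receptor genes were higher in SN. Of 7 glycine genes, 6 were higher, 1 (Gphn, -0.25 ± 0.05) was lower, and the receptor subunits Glra1, Glra2 and Glra3 were above every region. Glra1 was at 34.5, 26.9, 38.7, 30.6 and 34.8 CPM against 0 to 11.6 (6.49 ± 0.20, adjusted p = 1.51e-21), and Glra3 at 17.02, 10.9, 14.98, 16.5 and 18.2 CPM (3.35 ± 0.22). Slc6a5, the neuronal glycine transporter, was at 1.05, 1.51, 1.73, 1.56 and 2.505 CPM and did not pass the test against thalamus (0.34 ± 0.39, adjusted p = 0.49).

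Of 14 genes of neurofilaments and fast-firing projection neurons, 12 were higher than the mean of regions and 2 were not called, with a median of 1.05. Against thalamus alone, 4 of the 14 were higher in SN and 4 lower, with a median of -0.05. Nefl, Vamp1, Syt2 and Sv2c were above every region. Syt2, a fast calcium sensor of release, was at 532, 454, 565, 399.7 and 489 CPM against 7.53 to 298 (3.01 ± 0.12), and Sv2c, a synaptic vesicle protein, at 451, 485, 500.5, 436 and 519.6 CPM with striatum next at 279 ± 24.98 (SD, n = 5; 3.46 ± 0.10). Nefh, the heavy neurofilament, was higher than the mean (2.33 ± 0.06) and lower than in thalamus (-0.48 ± 0.10), and Kcna1 and Scn4b were not called.

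Of 15 iron genes tested, 8 were higher and 3 lower, with a median of 0.22. The largest was Steap2, a metal reductase, at 75.6, 73.8, 82.6, 62.99 and 82.1 CPM against 5.24 to 45.9 (2.41 ± 0.10), above every region. Trf (transferrin), Heph (hephaestin) and Fth1 (ferritin heavy chain) were higher by 1.96 ± 0.09, 1.71 ± 0.13 and 0.48 ± 0.07; Trf is also a marker of oligodendrocytes, and the 25 markers of that list, Trf included, summed to 14610.0 to 18410.0 CPM in SN, 9927 to 16090.0 CPM in thalamus, which overlapped SN, and 1041 to 1359 CPM in PFC, the lowest region; their part in these values was not tested. Slc25a37, the mitochondrial iron importer, was lower (-1.03 ± 0.07), and Ftl1, Tfrc, Cp and Ireb2 were not called.

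**Figure D2:**
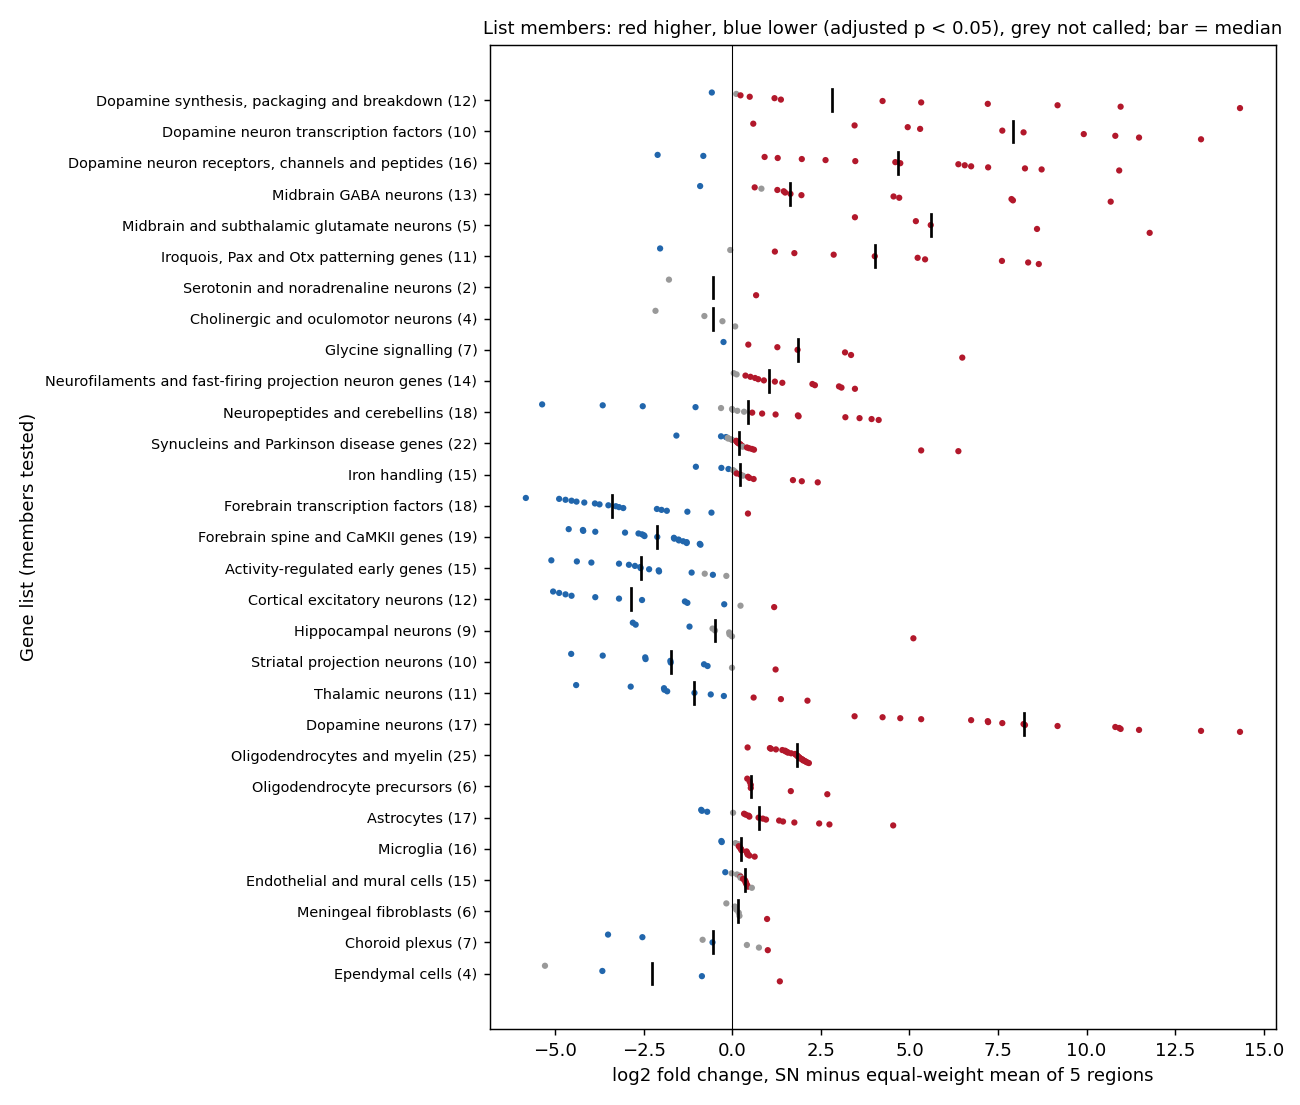
Each point is a gene, placed at its log2 fold change between SN and the equal-weight mean of 5 regions, with 1 row per gene list; red points were called higher, blue lower, grey not called, and the bar is the list's median. The furthest point to the right is Slc6a3, of the dopamine synthesis list, at 14.33, and forebrain transcription factors, spine genes and early genes lie almost wholly to the left.

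The genes chosen by size and expression as most distinctive of SN included Slc6a3, En1, Foxa2, Chrna6, Foxa1, Slc18a2, Uncx, Pax5, Pitx3, Rln3, C130021I20Rik, Gata3, Ddc and Th. The 3 of these outside the lists above were all nearly silent elsewhere. Uncx, a homeobox factor, was at 6.702, 8.29, 8.23, 8.76 and 8.84 CPM against 0 to 0.0572 (8.78 ± 0.23, adjusted p = 6.82e-23). Rln3, a relaxin family neuropeptide, was at 12.3, 8.54, 11.4, 11.6 and 12.2 CPM and at most 0.215 CPM elsewhere, with no counts in PFC, SSC and TH. C130021I20Rik was at 55.5, 54.9, 52.3, 63.5 and 61.6 CPM against 0 to 1.05 (9.79 ± 0.21). It is annotated as an antisense gene on chromosome 2 (33641193 to 33646354, plus strand), and since the sources do not say whether counting used the strand, its value is uncertain.

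The rule for genes below every region, which asked for at least 5 CPM in each of the other 5, named Gabrd, Ptk2b, Rasgrp1, Nptx2, Npy, Mlip, Dusp5 and A830036E02Rik. Gabrd, the delta subunit of extrasynaptic GABA-A receptors, was at 0.379, 0.841, 0.302, 0.515 and 2.55 CPM in SN and 24.3 to 219.5 in the other libraries (-6.84 ± 0.27, adjusted p = 4.43e-19). SN 5 was the highest of the SN libraries, and without it the difference was -7.57. Ptk2b, the tyrosine kinase Pyk2, was at 5.58, 11.99, 5.47, 7.82 and 30.9 CPM against 210.1 to 1638 (-5.72 ± 0.30), again with SN 5 highest. Rasgrp1, a calcium-regulated activator of Ras, was at 20.4, 22.5, 16.8, 41.4 and 31.1 CPM against 554 to 1095 (-4.89 ± 0.16, adjusted p = 4.44e-21). Nptx2, a synaptic pentraxin, was lower too (-3.98 ± 0.27), as were Mlip (-4.31 ± 0.13) and Dusp5, a phosphatase of ERK (-3.74 ± 0.32). A830036E02Rik was at 0.470, 0.269, 0.247, 0.258 and 2.198 CPM against 17.3 to 111, and being annotated as antisense it is uncertain in the same way as C130021I20Rik.

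Forebrain genes were lower as groups than the mean of regions. Of 18 forebrain transcription factors, 17 were lower and 1 was higher, with a median of -3.40, and 7 were below every region. Against thalamus alone, 7 of the 18 were higher in SN and 8 lower, with a median of -0.39. The list's mean of log2(CPM + 1) was 0.99 to 1.43 in SN and 0.96 to 1.64 in thalamus, so these overlapped. Lhx2, a cortical selector gene, was at 1.48, 2.37, 2.35, 0.561 and 3.14 CPM against 4.37 to 56.4 (-3.88 ± 0.26), and Mef2c, an activity-dependent factor of forebrain neurons, at 12.4, 15.5, 11.2, 12.9 and 28.7 CPM against 117 to 1017 (-4.18 ± 0.18, adjusted p = 4.41e-18). Dlx1, Dlx2, Dlx5, Dlx6 and Sp8, factors of forebrain GABA neurons, were the other 5 below every region; without TH 4, 2 of the 18 were below every region in place of 7. Sp9 was higher (0.44 ± 0.18, adjusted p = 0.0283), a call lost without SN 2, SN 3 or SN 5 and a direction that turned when thalamus was left out of the mean (-0.23) or when the arithmetic mean CPM was used (-0.79).

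All 19 dendritic spine and CaMKII genes were lower in SN, 11 of them below every region, with a median of -2.12. Camk2a, the alpha subunit of the calcium and calmodulin kinase of spines, was at 155, 106, 91.1, 108 and 203 CPM against 949 to 5659 (-4.22 ± 0.15, adjusted p = 2.78e-20), whereas Camk2b was lower too (-1.64 ± 0.05). The scaffold genes Dlg4, Shank2 and Shank3 were below every region, with differences of -1.39 ± 0.06, -1.65 ± 0.07 and -2.48 ± 0.11. Of the glutamate receptor genes, Grin2b was at 110.0, 74.6, 82.2, 65.3 and 84.7 CPM against 290.0 to 942 (-2.50 ± 0.19), Grin2a and Gria3 were below every region, and Gria1 and Gria2 were lower than the mean but not than thalamus. Nrgn, Baiap2 and Itpka were lower than the mean of regions (-3.87 ± 0.15, -3.03 ± 0.11 and -4.21 ± 0.22) and yet higher than in thalamus (2.24 ± 0.16, 2.08 ± 0.13 and 1.89 ± 0.28). Of 15 early genes induced by activity, 13 were lower and 2 were not called, with a median of -2.59. Egr1 was at 19.7, 29.8, 24.9, 43.7 and 30.9 CPM against 55.4 to 690.4 (-3.20 ± 0.22), and Nr4a3, Npas4 and Nptx2 were the other 3 below every region. The 2 without a call were Fos (-0.78 ± 0.38, adjusted p = 0.0675) and Btg2.

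Markers of cortical, striatal and thalamic neurons were mostly lower than the mean of regions, which includes their home regions, and those of hippocampal neurons were not. Of 12 cortical excitatory markers, 10 were lower and 1, Rasgrf2, was higher (1.18 ± 0.15). Against thalamus alone, 6 of the 12 were higher in SN and 3 lower, with a median of 1.81. The list's mean of log2(CPM + 1) was 2.66 to 3.45 in SN, 2.78 to 2.88 in striatum and 2.72 to 3.00 in thalamus, so these overlapped. Of 10 striatal projection neuron markers, 8 were lower and 1, Tac1, was higher, while against thalamus alone 4 were higher in SN and 3 lower, with a median of -0.07. Of 9 hippocampal markers, 3 were lower, near the 32.1% of all genes called lower, 5 were not called and 1 was higher: C1ql2, at 31.03, 54.2, 54.2, 42.4 and 59.2 CPM in SN against 102 ± 23.1 CPM in HP and 1.72 ± 1.21 CPM in thalamus (SD, n = 5). Of 11 thalamic markers, 8 were lower than the mean of 5 regions and 3 were higher (Tcf7l2, Gbx2 and Ntng1), and Tcf7l2 lay below the arithmetic mean CPM by 0.67 on the log2 scale.

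Oligodendrocyte genes were higher without exception. All 25 tested were higher than the mean of regions, with a median of 1.82, and 12 were above every region; without SN 1, without SN 3 or without TH 5 that count was 7, and without TH 1 it was 15. Mbp, myelin basic protein, was at 5126, 4484, 4433, 3776 and 3909 CPM in SN, 3382 ± 566 in thalamus and 302 ± 39.4 in PFC (SD, n = 5; 1.90 ± 0.09, adjusted p = 1.26e-17). The SN and thalamus libraries overlapped for it. The difference from thalamus was small where it was called: 0.36 ± 0.13 for Mbp and 0.58 ± 0.13 for Ugt8a, whose SN libraries were above all 25 others. Mog, Mobp, Mal and Olig2 did not pass the test against thalamus. Enpp2 was called with the smallest difference of the list (0.43 ± 0.16), HP being highest at 1219 ± 599 CPM (SD, n = 5), where choroid plexus markers were also high and their part was not tested; the call was lost without SN 1 or without SN 3. All 6 precursor markers were higher, led by C1ql1, a complement-related synapse protein, at 31.1, 33.6, 27.4, 41.8 and 34.3 CPM against 3.02 to 7.81 (2.68 ± 0.08, adjusted p = 4.83e-22), while Pdgfra, the defining receptor of precursors, differed by 0.49 ± 0.05.

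Astrocyte genes were split. Of 17 tested, 13 were higher than the mean of regions, 3 were lower and the median was 0.74. In the comparison with thalamus, 4 of the 17 were higher in SN and 5 lower, with a median of 0.06. Agt, angiotensinogen, was at 121, 186, 207, 226 and 207 CPM in SN, 93.1 ± 47.9 in thalamus and at most 26.3 in the other 4 regions (4.54 ± 0.20, adjusted p = 3.99e-18), with SN 1 lowest. Slc6a11, the glial GABA transporter GAT3, was at 1264, 1001, 1057, 1012 and 1023 CPM and did not differ from thalamus by the test (0.06 ± 0.10, adjusted p = 0.665), while the other 4 regions averaged at most 168 CPM. Aqp4, the water channel of astrocyte endfeet, was above every region (1.43 ± 0.09) with SN 1 lowest among 159.5, 247, 247, 272 and 265 CPM. Slc1a2 and Slc1a3, the glial glutamate transporters, were instead below all 25 other libraries: Slc1a2 at 1497, 1407, 1263, 1220.0 and 1239 CPM against 1615 to 2855 (-0.71 ± 0.10) and Slc1a3 at 304, 246, 218, 259 and 240.3 CPM against 313 to 684 (-0.88 ± 0.11). Gfap was at 65.5, 133, 217, 327 and 215 CPM, with SN 1 lowest and SN 4 highest, and was higher than the mean (1.75 ± 0.25) but overlapped HP.

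Microglia markers differed little: 11 of 16 were higher, 2 lower, and the median was 0.24. Ctss, a lysosomal protease, was above all 25 other libraries at 67.8, 80.96, 75.2, 72.4 and 73.3 CPM against 36.9 to 62.8 (0.63 ± 0.06), and P2ry12, Tmem119 and Siglech were not called. Without SN 4, 1 microglia marker was above every region in place of 2. Of 15 endothelial and mural markers, 9 were higher, by at most 0.44 ± 0.13 (Tek), and 1 was lower; over the libraries left out in turn these counts were 6 to 10 and 0 to 2. Of 6 meningeal fibroblast markers, 1 was higher, Dcn (0.98 ± 0.20), and SN 4 was the highest library at 34.5 CPM. Of 7 choroid plexus markers, 1 was higher, except without SN 4, and 3 were lower (2 to 4 over the libraries left out), with Ttr at no more than 0.470 CPM in SN. Of 4 ependymal markers, 1, Foxj1, was higher and 2 were lower (1 without SN 2 or SN 3), and Tmem212 was at 0 in all 5 SN libraries.

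**Figure D3:**
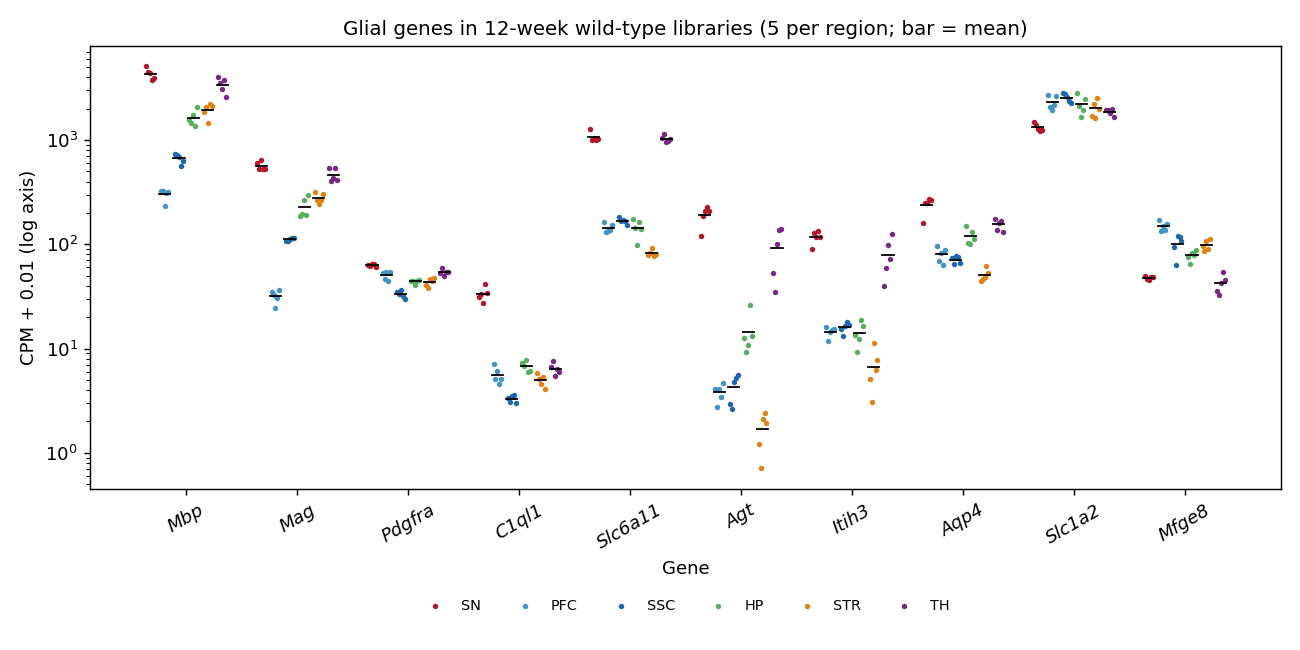
Glial genes in each of the 30 wild-type libraries, as CPM + 0.01 on a log axis, with a bar for each region's mean. For Mbp and Mag, SN and thalamus lie together at the top; C1ql1 stands apart in SN, and Slc1a2 is lowest in SN.

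Thalamus was the region with the fewest differences from SN, with 4712 genes higher (27.4%) and 4431 lower (25.8%), or 53.2% in either direction, against 66.7% to 71.8% for the other 4 regions. The largest differences in favour of SN, among genes with a mean of at least 5 CPM in SN, included those in Slc6a3, C130021I20Rik, Rln3, Foxa2, En1, Lmx1a, Slc18a2, Th and Pax5. In favour of thalamus they were in Wnt9b, a Wnt ligand, Abhd12b, Atp2a1, a calcium pump, Edaradd and Trim40: Wnt9b was at 0.0601 CPM in SN and 46.9 ± 3.22 CPM in thalamus (SD, n = 5; -9.53 ± 0.47), and Atp2a1 at 0.0756 and 42.0 ± 4.02 CPM (-9.15 ± 0.43). All 11 thalamic markers were lower in SN than in thalamus, with a median of -6.18. Prkcd, a kinase of thalamic relay neurons, was at 9.32, 9.35, 11.3, 10.5 and 12.0 CPM in SN and 2221 ± 111 CPM (SD, n = 5) in thalamus. Without TH 1 and TH 4, whose GABA genes were high, Six3 was higher in SN than in thalamus by 2.34 in place of 0.12, Pvalb by 0.92 in place of 0.09, and Sst by 1.71 in place of -0.91.

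The 5 SN libraries differed little for most genes. Over the 11550 genes with a mean of at least 5 CPM in SN, the median SD of log2(CPM + 1) was 0.102. Slc17a7, the vesicular glutamate transporter of cortex, was at 0.813, 14.1, 0.508, 0.273 and 40.1 CPM, so that SN 2 and SN 5 held it and the other 3 scarcely did. The whole cortical list, averaged as log2(CPM + 1), was 2.79, 3.20, 2.66, 2.74 and 3.45 in replicates 1 to 5, and Ddn, a dendritic protein of forebrain neurons, was at 12.2, 20.4, 12.1, 9.90 and 57.9 CPM. Without SN 5 the Slc17a7 difference from the mean was -6.55 in place of -5.06. The meningeal list gave 2.83, 2.66, 2.92, 4.67 and 3.57, with Igf2 at 25.1, 19.2, 25.2, 174 and 49.5 CPM and Col1a2 at 6.81, 6.68, 9.15, 40.98 and 14.8 CPM, so SN 4 was highest; without it 3 of the 6 meningeal markers were called lower in SN. SN 1 and SN 4 were together higher for Barhl1, Slc17a6, Tac1 and Adcyap1, and SN 1 was lowest for Th, En2, Pax5, Aqp4 and Gfap. The part of neighbouring tissue in these differences was not tested.

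**Figure D4:**
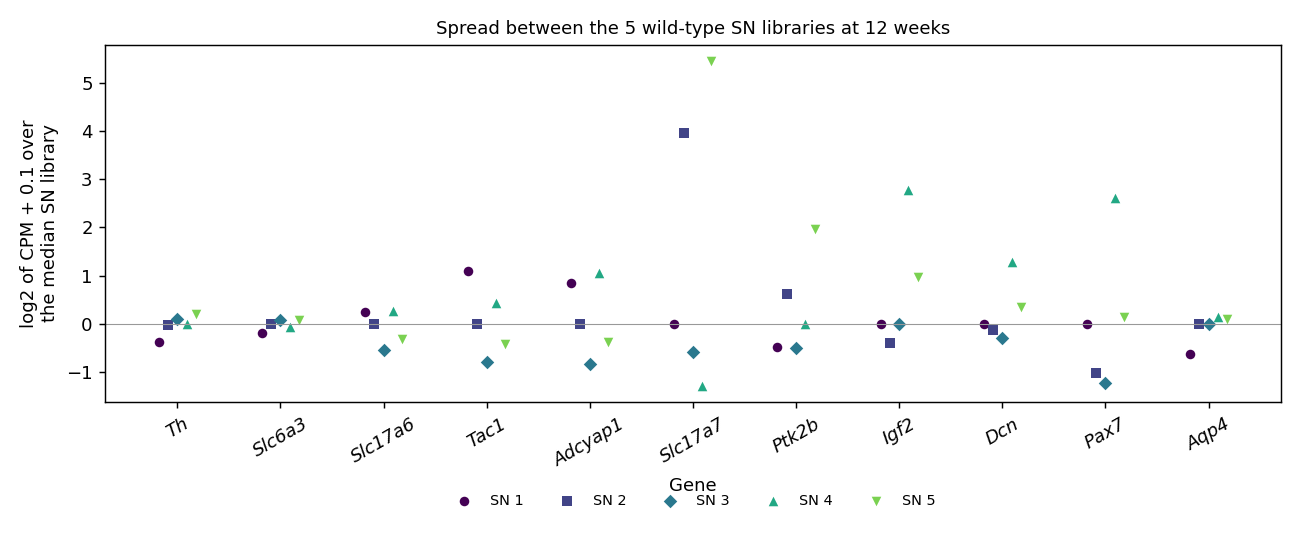
Each point is an SN library, placed at its log2 ratio of CPM + 0.1 to the median SN library, for 11 genes. Of these 11 genes Slc6a3 varies least, SN 1 and SN 4 are high for Slc17a6, Tac1 and Adcyap1, SN 5 for Slc17a7 and Ptk2b, and SN 4 for Igf2, Dcn and Pax7.

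The same contrast was computed in 3 further sets of libraries that share none with it: Akap11 +/- (HET) and Akap11 -/- (KO) mice at 12 weeks, and WT mice at 4 weeks. Akap11 in SN was at 91.0 to 122 CPM in HET and 14.7 to 17.5 CPM in KO. Of the 1510 genes above every region, 1498 were tested in HET, where 1142 (76.2%) were again above every region; that status held for 8.27% of all genes there. In KO it was 1199 of 1503 (79.8%, against 8.57% of all genes). Below every region again were 1246 of 1404 (88.7%, against 10.3%) in HET and 1178 of 1403 (84.0%, against 8.54%) in KO. All 1498 and 1503 of those tested had the same sign as in WT, as did all 1404 and 1403. Th differed by 9.11 ± 0.22 in HET and 8.77 ± 0.22 in KO, Slc6a3 by 14.45 ± 0.13 and 14.05 ± 0.12, Sncg by 6.55 ± 0.16 and 6.12 ± 0.13, and Gabrd by -7.73 ± 0.22 and -7.64 ± 0.10.

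At 4 weeks, 2 of the 6 SN libraries labelled WT stood apart. The mean of log2(CPM + 1) over the 17 dopamine markers was 2.38 in the library labelled WT 42 and 3.50 in the one labelled WT 92, while the remaining 4 gave 5.17 to 6.33. Prkcd was at 1336 CPM in WT 42 and 402 CPM in WT 92, and WT 92 had 41.1 CPM of Akap11 against 184 to 227 CPM in the other 5. The remaining 4 were not alike either. Prkcd was at 149 CPM in WT 23, 48.65 in WT 142, 7.14 in WT 913 and 9.02 in WT 914. Th was at 172, 182, 202 and 556 CPM in the same order. The part of neighbouring tissue in the 4-week values was not tested. With all 6, 630 of 1476 genes (42.7%, against 5.18% of all genes) were above every region again and 625 of 1404 (44.5%, against 4.64%) below. Without WT 42 and WT 92, it was 717 of 1483 (48.3%, against 4.80%) and 920 of 1404 (65.5%, against 6.81%). These 2 were left out after their marker and Akap11 values had been seen. That choice favours higher shares and larger dopamine gene differences without them, so such a rise is no separate evidence. Th differed by 6.70 ± 0.53 with all 6 and 7.19 ± 0.46 without those 2, and the SN mean of Th was 279 CPM (SD 187, n = 4) in the latter. Gabrd differed by -1.54 ± 0.55 with them and -3.94 ± 0.54 without, and Prkcd was higher in SN by 3.03 ± 0.48 with them and not called without (0.42 ± 0.47, adjusted p = 0.464). No test compared the ages with each other.

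**Figure D5:**
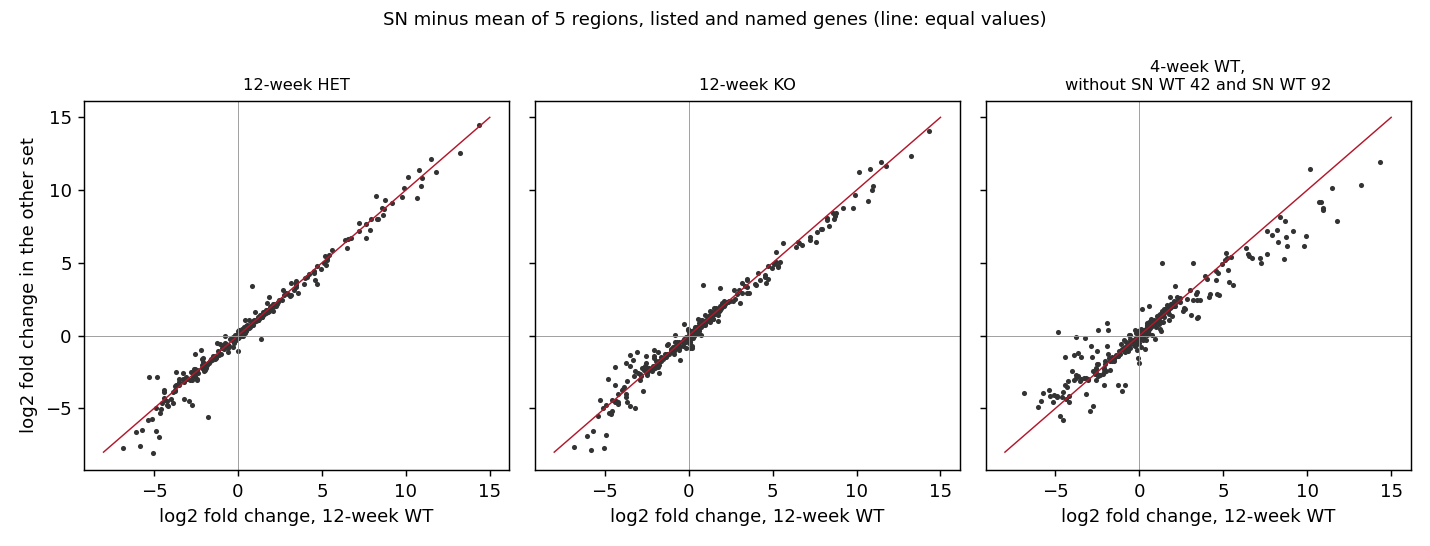
Each point is a listed or named gene, with its log2 fold change between SN and the mean of 5 regions at 12 weeks in WT on the x axis and the same value in 12-week HET (341 genes), 12-week KO (341) and 4-week WT without SN WT 42 and SN WT 92 (340) on the y axis; the line marks equal values. In HET and KO the points lie along the line, and at 4 weeks Th lies at 7.19 against 9.18 and Slc6a3 at 11.96 against 14.33. SN WT 42 and SN WT 92 were left out after their values had been seen.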

How the data were processed

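Bulk RNA was sequenced from microdissected frozen tissue with a stranded mRNA kit, per the labels' protocols. The authors deposited expected counts per gene symbol, of which 77.9% of those above 0 are not whole; Salmon and the build mm10 are named in the submitters' processing notes without versions, and no source used here says whether counting used the strand. No column was without a sample. Groups came from the labels alone.

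Expected counts were rounded. The 30 wild-type libraries at 12 weeks were fitted by region with edgeR 4.0.16 (R 4.3.3; TMM, filterByExpr, glmQLFit, glmQLFTest), which kept 17180 of 28338 symbols, and p-values were Benjamini-Hochberg adjusted. SN was compared with the mean of 5 regions and with each region. The SE is the size of the log2 fold change over the square root of F. List scores are means of log2(CPM + 1). On simulated counts for 16910 genes, this SN contrast called 76.1% of 67 genes changed 1.5-fold, 100% of 67 changed 2-fold, and 10 of 16710 unchanged genes. The simulation changed few genes, none of them at very low levels, and gave the other 5 regions equal means. In the data 67.8% of genes were called, so these rates need not hold for them. Libraries of a group all differed by more than counting noise (chi-square per degree of freedom at least 12.3).

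Named genes were the 15 above and 8 below every region with the largest distance to the nearest region, no overlap and a mean of at least 5 CPM (in SN, or in every other region), any member of the lists, with the largest changes as examples, Sncg and Sncb, Akap11, and, at 5 CPM or more, the 10 genes with the largest excess of SN over thalamus and the 5 with the reverse. The comparison, the lists and the rule were chosen with earlier results of these data known. Some genes that the rule names are not reported here. Alternatives were other scaling (DESeq2 1.42.0 and its size factors), limma 3.58.1, filter, weights, replicate block and leaving out libraries. Positions are from GENCODE M21 (95.5% of symbols matched), 1-based.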

Additional observations from a re-analysis of the deposited data

Results flagged for a closer look

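In 174 checks of 5 SN libraries each, 1 library stood apart from the other 4 by a gap of more than 0.710 of the range (Dixon's test) for the genes below. For normally distributed values, chance alone gives this in about 1 of 20 groups. The checks share the same 5 libraries, and most were on genes picked for this report, so that rate need not hold here. No explanation was tested.

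SN 1 was low for Uncx (6.70 CPM, the others 8.23 to 8.84), En2 (9.65 against 18.4 to 19.3), both homeobox genes, and for the astrocyte channel Aqp4 (159.5 against 247 to 272). It was high for Maob (43.6 against 29.99 to 33.23), Pax6 (8.24 against 3.64 to 4.84), Sst (30.9 against 14.9 to 17.1), Heph (30.4 against 17.5 to 19.6), Slc6a11 (1264 against 1001 to 1057) and Ttr (0.470 against 0.118 to 0.212). SN 2 was low for Rln3 (8.54 against 11.4 to 12.3). SN 4 was high for Pax7 (5.71 against 0.302 to 0.945) and Dcn (34.5 against 11.4 to 18.0) and low for Nefl (723.0 against 844 to 878). SN 5 was high for A830036E02Rik (2.20 against 0.247 to 0.470), Gabrd (2.55 against 0.302 to 0.841), Ptk2b (30.9 against 5.47 to 12.0), Tbr1 (1.51 against 0.110 to 0.370) and Mef2c (28.7 against 11.2 to 15.5).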

How the results depend on the processing

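Counts of called genes over all genes tested stayed within 1.5 times under every alternative run; the list counts without single libraries, and the values without TH 1 and TH 4 or without SN 4 and SN 5, were chosen after seeing the data. Against the mean of regions, 5913 genes were higher and 5713 lower with relative log expression size factors, which moved the median of all genes by -0.018, 5925 and 5919 with DESeq2, 6824 and 5488 without a filter, and 6391 and 5785 with limma-voom. With the replicate number as a block, 6301 were higher and 5637 lower, and 1605 were above and 1488 below every region. Of 75 pairs of libraries with one number, 44 had deviations correlated by more than 0.1; the median was 0.125, against -0.035 for different numbers, and the lowest -0.192. Libraries with one number were thus more alike on the median than those with different numbers. The limma-voom fit took the number as a random effect, with a consensus correlation of 0.093. Nothing states what the numbers mark, and these values do not decide whether the libraries are paired. Numbers also recur over the regions in the HET, KO and 4-week WT libraries, for which these correlations were not computed. The main fit and the same fits in those sets left the numbers out. Leaving out each library in turn gave 5707 to 6175 genes higher and 5295 to 5670 lower than the mean, 1351 to 1518 above and 1304 to 1462 below every region, 375 to 416 and 180 to 201 at 2-fold in each, and 4353 to 4772 higher and 4241 to 4598 lower than in thalamus. As ratios of SN to the arithmetic mean CPM of the regions, 83 of 142 named log2 values moved by more than the spread between replicates, 56 did not and 3 reversed. Called values that turned were Sp9 without thalamus in the mean (-0.23, adjusted p = 0.264) and, as those ratios, Tac1 (-1.51), Sp9 (-0.79) and Tcf7l2 (-0.67); the cause was not tested. Depth limits genes at few counts, and folds over regions at 0 are bounds.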

Other observations

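Imprinted genes, which are expressed from 1 parental allele, were often higher in SN. A list of 42 such genes was written after their values had been seen, so its counts are a description and carry no test. Of 40 tested, 27 were higher than the mean of 5 regions and 3 were lower, 19 were above every region, and the median log2 difference was 0.79. Several share a locus and are not independent of each other. Dlk1 and its neighbour Rtl1 were both high, Rtl1 at 10.9, 14.6, 15.1, 12.3 and 15.6 CPM against 0 to 2.54 elsewhere (6.76 ± 0.24, adjusted p = 5.38e-20 by edgeR's test), whereas Meg3, of the same locus, was not called (0.05 ± 0.19). In the Prader-Willi region, Ndn, which encodes necdin, was at 448, 389.8, 398, 426 and 394 CPM against 64.3 to 214 (1.45 ± 0.14) and Magel2 at 13.7, 11.8, 11.3, 15.3 and 12.3 CPM against 0.376 to 6.96 (3.57 ± 0.27), while Snrpn was not called (-0.09 ± 0.04). Grb10, an adaptor of insulin receptor signalling, was at 163, 162, 166, 175 and 167 CPM against 24.2 to 85.3 (1.84 ± 0.09), beside Ddc on the same stretch of chromosome 11. Peg3, Zim1, Peg10, Nnat and Nap1l5 were likewise above all 25 other libraries, by 1.27 ± 0.05, 3.31 ± 0.13, 2.30 ± 0.13, 2.32 ± 0.20 and 1.70 ± 0.05.

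Genes annotated as non-coding made up 14.3% of the 391 genes at least 2-fold above every region (56 genes) and 7.5% of all genes tested, and 8.6% of the 187 genes at least 2-fold below. Without the 2-fold limit, they made up 5.2% of the 1510 genes above and 2.1% of the 1404 below every region. Both shares were under that of all genes tested. No source used here says how the counting treated strand and overlap, so the values of non-coding genes are uncertain.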
